A study of Mus musculus with 8 samples.

Results

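The nuclear-encoded genes of respiratory complexes II to V were compared between insulin-specific T cells taken from NOD and from B16A hosts. The members were the 49 of 46625 gene names in the count table whose symbols start as those of succinate dehydrogenase (Sdha to Sdhd), of complex III (Uqcr), of cytochrome c oxidase (Cox4 to Cox8) or of ATP synthase (Atp5) do, together with Cyc1 and Cycs. Another 4 symbols marked as pseudogenes were left out. The set held 4 genes of complex II, 9 of complex III, cytochrome c, 18 of complex IV and 17 of complex V. Enough counts for a test were present in 42 of the 49.

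Complex II, succinate dehydrogenase, passes electrons from the citric acid cycle to ubiquinone. Complex III hands them on to cytochrome c, and complex IV, cytochrome c oxidase, gives them to oxygen. Complexes III and IV pump protons across the inner mitochondrial membrane, and complex V, ATP synthase, makes ATP as the protons flow back. Complex II is encoded wholly in the nucleus, while complexes III, IV and V also hold subunits made inside the mitochondrion. Naive T cells draw most of their ATP from this chain, and activated T cells enlarge it while they also turn to glycolysis.

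The cells came from donors that lack the T cell receptor alpha chain and carry the 8F10 receptor for an insulin peptide, with the congenic marker CD45.2. Donor bone marrow, cleared of T and B cells, was given to CD45.1 hosts after non-lethal irradiation, so that the hosts could keep cells of their own. The hosts were NOD mice or B16A mice, which are NOD mice whose insulin has a changed residue in the B chain, and the strain label of all samples is NOD/ShiLtJ. The 8F10 T cells were sorted from inguinal lymph nodes at 6 weeks and their RNA was sequenced after amplification. Each host had 4 libraries, numbered by batch from 1 to 4, and 1 library of each host made up each batch. The labels give no age or sex, and they do not say whether the libraries of a host came from separate animals, so each p-value reflects only how these samples vary, in part perhaps for technical reasons.

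Total counts ran from 4896593 to 6137666 in batches 1 to 3 and stood at 28301805 (NOD) and 28094237 (B16A) in batch 4. The members took 0.241%, 0.184%, 0.314% and 0.763% of the counts in the NOD libraries of batches 1 to 4 and 0.223%, 0.142%, 0.200% and 0.703% in the B16A libraries. The NOD library had the larger share in each batch. An exact two-sided permutation test over 70 arrangements of the host labels gave p = 0.514 (smallest possible p 0.0286, n = 4 each). It ignores the pairing by batch, so that the far higher shares in batch 4 enter its spread. It therefore cannot decide on a difference within batches. The members were also chosen with earlier results of these data known, and no conclusion is drawn from the test. The sum of 8 T cell genes was also higher in the NOD library of every batch, at 7090, 5240, 9350 and 16500 CPM (counts scaled to a common library size by TMM) against 6300, 4660, 6300 and 12500 CPM. The sum of 6 B cell genes was higher in the NOD library of every batch as well, at 6.47, 17.9, 8.57 and 6.82 CPM against 4.06, 8.46, 7.01 and 2.38 CPM. The sum of 4 NK cell genes was lower in the NOD library of every batch, at 3.92, 4.56, 6.31 and 20.3 CPM against 7.07, 6.77, 14.5 and 22.6 CPM. CD8 T cell genes (2) summed to 85.3, 63.6, 87.7 and 185 CPM in NOD and 70.9, 120, 101 and 122 CPM in B16A hosts. That sum was higher in NOD in batches 1 and 4 and lower in batches 2 and 3. Macrophage genes summed to 2.36 to 35.7 CPM in NOD and 3.17 to 25.9 CPM in B16A hosts, and dendritic cell genes to 9.19 to 50.7 and 3.75 to 36.8 CPM. The macrophage and dendritic cell sums were lowest in batch 4. The stromal and endothelial list summed to 284 to 367 and 269 to 407 CPM, nearly all of it Pecam1, with Pdpn and Ccl19 at 0 in every library. The part that T cell share or other cells had in the results below was not tested, and in bulk RNA fewer cells of a type and less RNA per cell cannot be told apart.

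Promoter stretches are shown for 4 of the 6 members that shared the smallest adjusted p, to show how their starts differ in motifs, and for Cycs, a textbook target of the factor NRF1. They are the 250 bases before the RefSeq start in build GRCm38.p6, all on the minus strand and read 5′ to 3′ in the sense of the gene. Capitals mark matches to 1 of 3 short motifs that are known from promoters of nuclear mitochondrial genes: GCGCANGCG for NRF1, CCGGAAG for ETS factors such as GABP, and AAGATGGCG for YY1, each searched on both strands. The stretches lie at chr17:83514334-83514583 (Cox7a2l), chr7:30626115-30626364 (Cox6b1), chr4:116075071-116075320 (Uqcrh), chr2:174464102-174464351 (Atp5e) and chr6:50566570-50566819 (Cycs).
Cox7a2l: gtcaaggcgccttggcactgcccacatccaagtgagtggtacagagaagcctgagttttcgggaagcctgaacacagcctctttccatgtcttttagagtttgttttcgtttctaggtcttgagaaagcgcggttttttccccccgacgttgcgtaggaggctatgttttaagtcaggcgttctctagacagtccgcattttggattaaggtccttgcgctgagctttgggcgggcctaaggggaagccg
Cox6b1: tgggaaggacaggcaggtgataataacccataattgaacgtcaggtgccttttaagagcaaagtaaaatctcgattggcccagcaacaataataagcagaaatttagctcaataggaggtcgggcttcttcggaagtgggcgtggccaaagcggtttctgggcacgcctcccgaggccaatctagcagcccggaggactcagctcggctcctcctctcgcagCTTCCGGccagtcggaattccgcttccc
Uqcrh: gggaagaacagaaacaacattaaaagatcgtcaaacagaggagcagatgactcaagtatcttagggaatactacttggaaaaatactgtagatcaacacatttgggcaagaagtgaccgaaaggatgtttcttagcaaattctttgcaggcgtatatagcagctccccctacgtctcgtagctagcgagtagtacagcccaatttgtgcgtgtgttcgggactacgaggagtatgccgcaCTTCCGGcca
Atp5e: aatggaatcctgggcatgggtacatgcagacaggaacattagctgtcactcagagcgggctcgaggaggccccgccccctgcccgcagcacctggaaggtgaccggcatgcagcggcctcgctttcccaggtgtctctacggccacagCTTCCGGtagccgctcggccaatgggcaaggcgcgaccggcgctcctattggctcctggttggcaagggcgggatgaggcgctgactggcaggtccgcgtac
Cycs: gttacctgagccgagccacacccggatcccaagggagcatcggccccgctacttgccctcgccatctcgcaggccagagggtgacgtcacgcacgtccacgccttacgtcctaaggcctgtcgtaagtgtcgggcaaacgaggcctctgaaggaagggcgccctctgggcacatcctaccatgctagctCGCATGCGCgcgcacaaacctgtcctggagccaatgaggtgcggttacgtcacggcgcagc
The ETS motif, here on the opposite strand as CTTCCGG, begins 28 bases before the start of Cox6b1, 10 before that of Uqcrh and 102 before that of Atp5e. The NRF1 motif begins 61 bases before the start of Cycs. None of the 3 motifs is in the Cox7a2l window, which says only that these letters are absent from it. That window lies inside the longer span that the GENCODE vM21 annotation gives Cox7a2l (chr17:83501918-83517330). Of the tested members 34 had a RefSeq window of 250 bases before and 50 after the start. The NRF1 motif was in 12 of them (35.3%), against 14.8% of the tested genes with a window and 6.2% of all 32851 windows. The ETS motif was also in 12 (35.3%, against 19.3% and 8.9%), and the YY1 motif in 3 (8.8%, against 3.5% and 1.4%). A match is a description of the sequence and does not show that a factor binds there.

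No tested gene of complexes II to V was called by edgeR with all 4 batches and a filter on low counts, and most had a fold change slightly above 0. Other methods, and edgeR without that filter, called Cox7a2l, as given with complex IV. With batch as a term, edgeR's quasi-likelihood test with Benjamini-Hochberg adjustment called 0 of the 42 tested members and 0 of all 14607 tested genes (0.0%), with a smallest adjusted p of 0.683. The fitted log2 fold change, NOD over B16A, was above 0 for 34 of the 42 (81.0%), against 51.3% of all tested genes. The median was 0.22, against 0.01 for all tested genes, and the values ran from -0.47 (Cox5a) to 0.78 (Cox7a2l). An unadjusted p under 0.05 was reached by 14 members in the higher direction (33.3%, where 3.55% of all tested genes did) and by 0 in the lower (where 2.31% did). The NOD library was the higher one in all 4 batches for 15 members (35.7%, against 7.33% of all tested genes) and the lower one in all 4 for 0. For 0 of the 42 did every NOD library lie above every B16A library (0.212% of all tested genes did).

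**Figure D1:**
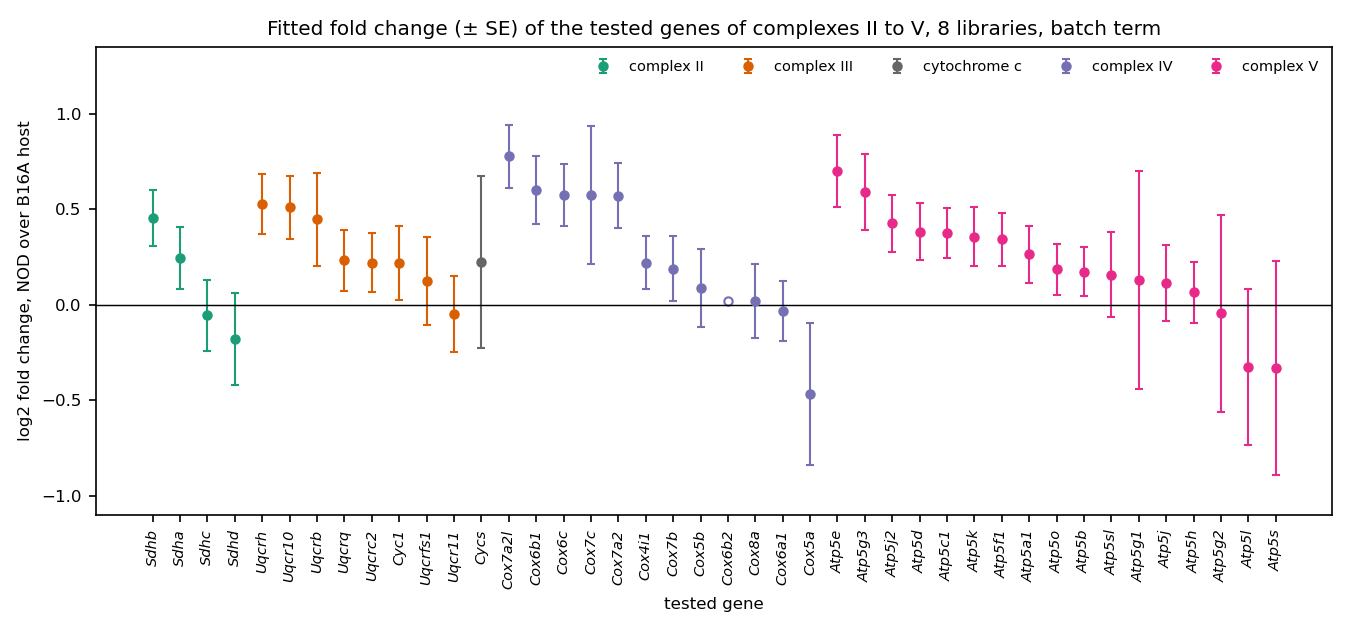
Fitted log2 fold change, NOD over B16A host, of each of the 42 tested genes (vertical axis), ordered within complexes II, III, cytochrome c, IV and V (colours). Points are edgeR estimates from 8 libraries with batch as a term. Bars are ± 1 SE, derived from the estimate and its F statistic, except for Cox6b2 (open point), whose SE of 1.47 is not drawn. Of the 42 points 34 are above 0, and Cox7a2l is the highest at 0.78.

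The size of the shift differed between batches. Of the 42 tested members, 27, 26, 39 and 34 had the higher value in the NOD library of batches 1 to 4. Of all 14607 tested genes 7327, 7666, 7090 and 6788 did. The median log2 ratios of the 42 were 0.15, 0.14, 0.49 and 0.21, while the medians of all tested genes were 0.00, 0.04, -0.02 and 0.00. Batch 3 weighed most: without it the median was 0.14, with 30 of 42 above 0 and 7 at an unadjusted p under 0.05 in the higher direction (1.96% of all tested genes). Without the batch term the median was 0.25 with 36 above 0, and 1 member, Cox7a2l, kept an unadjusted p under 0.05 (0.116% of all tested genes), since the spread between batches then counts as error.

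**Figure D2:**
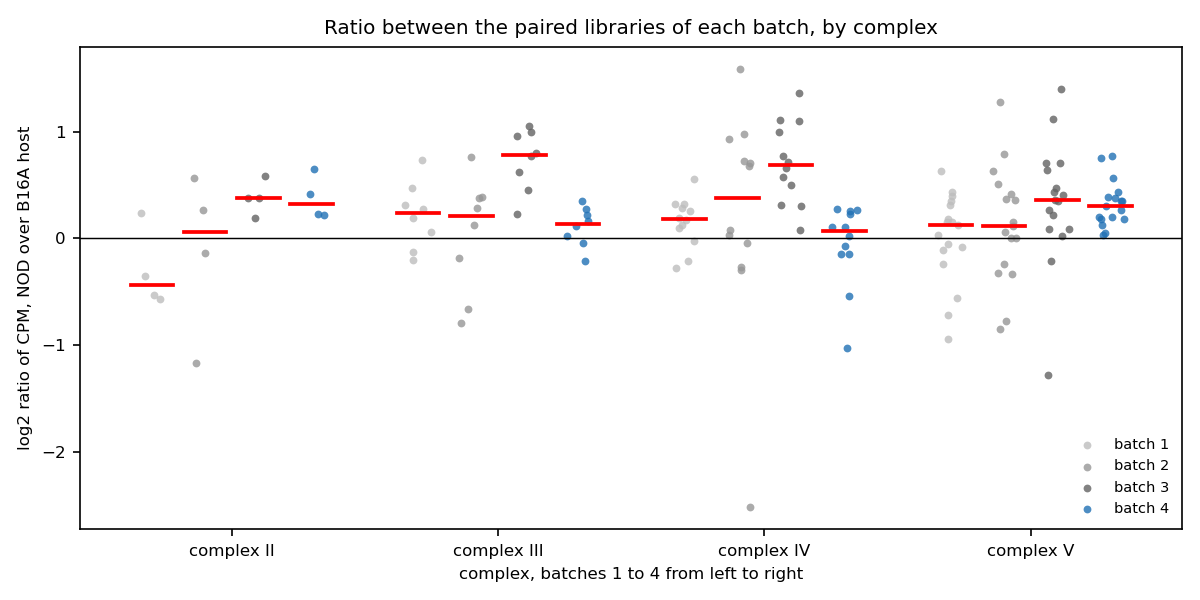
Log2 ratio of CPM of the NOD library to its B16A partner (vertical axis) for each tested gene, by complex and, within a complex, for batches 1 to 4 from left to right (1 point per gene, jittered sideways, red line the median over genes, no error bars as each ratio is 1 pair of libraries). Complex III and IV have their highest medians, 0.78 and 0.69, in batch 3. All 17 genes of complex V are above 0 in batch 4, where 6788 of all 14607 tested genes are.

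The 4 genes of complex II lay on both sides of 0. Their median log2 fold change was 0.10, with 2 above 0 and 2 below. An unadjusted p under 0.05 in the higher direction was reached by 1 of the 4, and by 3.55% of all tested genes. The batch medians were -0.44, 0.06, 0.38 and 0.32. The fitted median was -0.03 without batch 4, 0.04 without batch 3 and 0.26 without batch 1. Sdhb, the iron-sulfur subunit, stood at 38.3, 32.6, 42.1 and 313 CPM in the NOD libraries of batches 1 to 4 and at 32.5, 21.8, 27.9 and 234 CPM in the B16A libraries. It was higher in the NOD library of each batch, but the groups overlapped, as both batch 4 libraries were far above the rest. The log2 fold change was 0.45 ± 0.15 SE (edgeR, unadjusted p = 0.00745, adjusted p = 0.734). Sdha, the flavoprotein that oxidises succinate, stood at 83.6, 88.7, 105 and 421 CPM against 106, 73.8, 81.1 and 268 CPM (log2 change 0.25 ± 0.16 SE, edgeR adjusted p = 0.921), lower in NOD in batch 1 and higher in the other 3. The membrane anchor genes Sdhc and Sdhd stood at -0.06 ± 0.19 and -0.18 ± 0.24 (fitted log2 fold change and SE). Sdhd stood at 6.30, 3.64, 10 and 151 CPM against 9.18, 8.46, 7.65 and 129 CPM, lower in the NOD library in batches 1 and 2 and higher in batches 3 and 4. Per kilobase of exon, the mean of batches 1 to 3 was 21.8 CPM for Sdha, 14.5 for Sdhb, 6.13 for Sdhd and 5.98 for Sdhc, while in batch 4 it was 83.4, 122, 114 and 30.6. Sdha was thus the highest of the 4 in batches 1 to 3 and Sdhb in batch 4, where the level of Sdhb is 222 if the length of its longest transcript is used.

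In complex III, 7 of the 8 tested genes had a fold change above 0. An unadjusted p under 0.05 in the higher direction was reached by 2 (25.0%, against 3.55% of all tested genes). The median was 0.23 and the batch medians were 0.24, 0.21, 0.78 and 0.14. Without batch 3 the median was 0.13. Uqcrh, the hinge subunit that docks cytochrome c1, stood at 45.3, 32.1, 69.4 and 624 CPM in NOD and at 32.7, 24.4, 33.5 and 536 CPM in B16A hosts. It was higher in the NOD library of each batch, by a log2 ratio of 0.47, 0.39, 1.05 and 0.22 in turn. The log2 fold change was 0.53 ± 0.16 SE (edgeR, unadjusted p = 0.00440, adjusted p = 0.683). Uqcr10, a small accessory subunit, stood at 34.1, 17.5, 40.3 and 262 CPM against 20.3, 16, 23.1 and 206 CPM, also higher in NOD in each batch (log2 change 0.51 ± 0.16 SE, edgeR adjusted p = 0.734). Uqcrb, a small subunit that takes part in binding ubiquinone, stood at 9.88, 4.56, 16.3 and 51.7 CPM against 8.13, 2.61, 8.29 and 53.0 CPM, higher in batches 1 to 3 (0.45 ± 0.24 SE, edgeR adjusted p = 0.885). Of the 50-base windows of Uqcrb 25.5% occur in other transcripts, mostly of predicted genes, so its count is uncertain.

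The other tested genes of complex III had smaller fold changes. Cyc1, the cytochrome c1 subunit, had a log2 fold change of 0.22 (standard error 0.20), Uqcrfs1, the Rieske iron-sulfur protein, of 0.12 (0.23) and Uqcrc2, a core subunit, of 0.22 (0.16). The small subunit gene Uqcrq had 0.23 (0.16). Uqcr11, the only tested member of complex III below 0, stood at 26.9, 8.02, 34.9 and 68.2 CPM in NOD and at 23.5, 14, 29.8 and 67.4 CPM in B16A hosts, with a fold change of -0.05 (0.20), which was 0.14 without batch 2. Uqcrc1, the other core subunit, is listed with 0 counts in the 6 libraries of batches 1 to 3 and with 2 and 1 counts in the NOD and B16A libraries of batch 4. As its partner Uqcrc2 stood at 29.7 to 348 CPM, and as none of the 50-base windows of Uqcrc1 occur in other transcripts, the listed value cannot be read as absence of the RNA, and how it arose was not tested. Uqcrc2 itself overlaps Pdzd9 on the opposite strand over 19.7% of its exonic bases, as do Cox5a and Gm26631 (12.8%), Atp5j and Gabpa (12.7%) and Cox4i1 and Emc8 (9.9%). As no source used here gives the use of strand in the counting, the reads of such pairs cannot be told apart.

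Cytochrome c, the soluble carrier between complexes III and IV, is encoded by Cycs. It stood at 2.90, 4.01, 2.75 and 9.90 CPM in NOD and at 2.11, 1.69, 3.03 and 13.3 CPM in B16A hosts, with a log2 fold change of 0.22 and a standard error of 0.45 (edgeR, adjusted p = 0.991). The NOD library was higher in batches 1 and 2 and lower in batches 3 and 4. Per kilobase of exon it reached 0.807 CPM in batches 1 to 3 and 3.41 in batch 4, against 13.0 and 25.5 for Cyc1. Of its 50-base windows 26.1% occur in other transcripts, so reads of Cycs could have been split or left out.

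**Figure D3:**
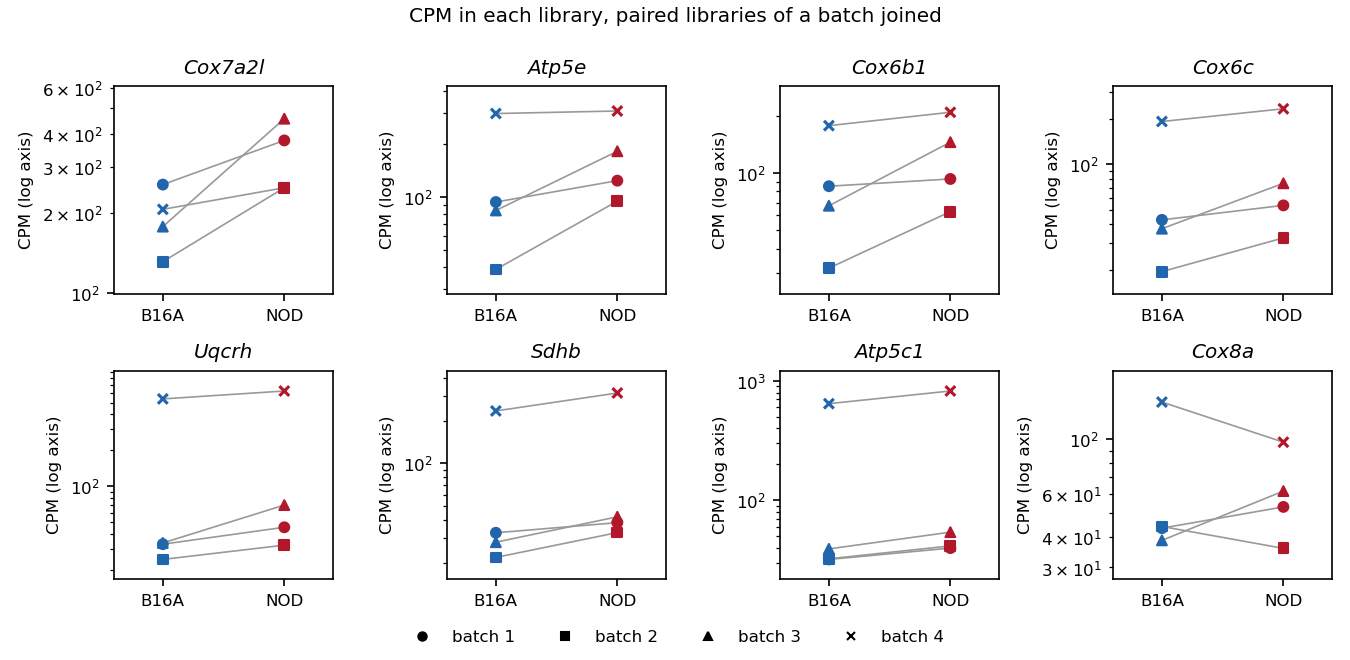
CPM on a log axis for 8 genes in each library, with the B16A and NOD libraries of a batch joined by a line (circles, squares, triangles and crosses for batches 1 to 4, blue B16A, red NOD, 1 library per point). The lines of Cox7a2l, Atp5e, Cox6b1, Cox6c, Uqcrh, Sdhb and Atp5c1 run upward from B16A to NOD in all 4 batches, while Cox8a goes up in 2 and down in 2.

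Complex IV had 10 of 12 tested genes above 0, a median of 0.20 and batch medians of 0.18, 0.38, 0.69 and 0.07. An unadjusted p under 0.05 in the higher direction was reached by 4 (33.3%, against 3.55% of all tested genes). Cox7a2l, which helps complexes III and IV to join in supercomplexes and is counted here by its symbol, stood at 378, 250, 457 and 250 CPM in NOD and at 257, 131, 178 and 207 CPM in B16A hosts. It was higher in the NOD library of each batch, and the groups overlapped only in that the B16A library of batch 1 (257 CPM) exceeded the NOD libraries of batches 2 and 4. The log2 fold change was 0.78 ± 0.17 SE (edgeR, unadjusted p = 0.000346, adjusted p = 0.683). Without Cox7a2l the median of complex IV was 0.19. Among its own 50-base windows 13.8% occur in another transcript, that of the predicted gene Gm6969.

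Whether Cox7a2l passed the threshold depended on the method and on the batches kept. It rose with DESeq2 and the batch term (log2 fold change 0.79, adjusted p = 0.0163, 0.0479% of all tested genes called higher), with limma voom and quality weights (0.85, adjusted p = 0.0267, 0.0548%) and with edgeR when genes with low counts were kept (0.76, adjusted p = 0.0268, 0.0278%). It also rose with edgeR when batch 4 was left out (0.95, adjusted p = 0.00228, 0.159%). With edgeR it was not called when batch 1, 2 or 3 was left out (log2 fold change 0.84, 0.72 and 0.59). Nor was it called with other size factors, with a filter of 1 CPM in 4 libraries, without the batch term or with either length correction. No other member was called by DESeq2, limma voom or the unfiltered edgeR test.

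Of the enzyme's own nuclear subunits, 4 small ones had fold changes near 0.6. Cox6b1, which faces the intermembrane space, stood at 93.0, 62.7, 145 and 208 CPM in NOD and at 85.2, 31.7, 67.3 and 177 CPM in B16A hosts, in batch order (log2 change 0.60 ± 0.18 SE, edgeR adjusted p = 0.683). Cox6c stood at 53.5, 32.6, 74.9 and 233 CPM against 42.9, 19.5, 37.5 and 192 CPM (0.58 ± 0.16 SE, edgeR adjusted p = 0.683). Cox7a2 stood at 52.8, 34.4, 77.8 and 247 CPM against 44.1, 21.4, 36.0 and 206 CPM (0.57 ± 0.17 SE, edgeR adjusted p = 0.683). All 3 were higher in the NOD library of each batch, most of all in batch 3, and their groups overlapped. Cox7c, the last of the 4, had a fold change of 0.58 with a larger standard error of 0.36, at 8.52, 4.56, 8.25 and 14.4 CPM against 6.77, 1.38, 4.94 and 15.1 CPM, and 22.1% of its windows occur in other transcripts. Cox4i1, the largest nuclear subunit and a site of regulation by ATP, stood at 72.5, 37.0, 85.9 and 1080 CPM against 67.6, 34.9, 57.5 and 1000 CPM. The NOD library was higher in each batch, with a fold change of 0.22 and a standard error of 0.14 (edgeR, adjusted p = 0.917).

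Of the other tested subunits of complex IV, 4 lay within 0.2 of 0 and Cox5a lay lower. Cox7b had a fold change of 0.19 (standard error 0.17), Cox5b of 0.09 (0.20), Cox8a of 0.02 (0.19) and Cox6a1 of -0.03 (0.16). Cox5a, which sits on the matrix side, stood at 1.70, 0.911, 3.56 and 61.2 CPM in NOD and at 2.11, 6.15, 3.35 and 56.7 CPM in B16A hosts. Its fold change of -0.47 (standard error 0.37, edgeR adjusted p = 0.942) went with a log2 ratio of -2.52 in batch 2, and it was 0.02 without that batch. With each library's trend on coding length taken out, the median of complex IV was 0.05, without batch 3 it was 0.06, and without batch 4 it was 0.35.

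The isoforms known from other tissues were low or not testable. Cox6b2, known from testis, stood at 3.58, 7.65, 4.21 and 0.0446 CPM in NOD and at 3.16, 4.61, 3.35 and 0.292 CPM in B16A hosts, so that both batch 4 libraries were near 0 (log2 change 0.02 ± 1.47 SE). Cox4i2, the lung and hypoxia isoform, had 12 counts over all 8 libraries, and the muscle isoforms Cox6a2, Cox7a1 and Cox8b had 3, 39 and 6. The testis isoforms Cox7b2 and Cox8c had 22 and 8. Their partners in most other cells, Cox4i1, Cox6a1, Cox7a2 and Cox8a, were each tested. Per kilobase of exon Cox6a1 reached 119 and 220 CPM in batches 1 to 3 and in batch 4, Cox7a2 47.1 and 240, Cox8a 74.5 and 193 and Cox4i1 38.2 and 672. Cox7a2l, at 186 and 154, was the highest of complex IV in batches 1 to 3, whereas Cox4i1 was the highest in batch 4, where its level is 1360 by the longest transcript.

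In complex V, 14 of 17 tested genes lay above 0 (82.4%, against 51.3% of all tested genes). An unadjusted p under 0.05 in the higher direction was reached by 7 (41.2%, against 3.55%). The median was 0.19, and it was 0.32 without batch 1 and 0.31 without batch 2. Atp5s and Atp5sl carry the symbol but are not subunits of the enzyme, and without them 13 of 15 were above 0 with a median of 0.26. The batch medians of the 17 were 0.13, 0.12, 0.36 and 0.30, and in batch 4 the NOD library was higher for all 17. In batches 1 to 3 the same held for 10, 10 and 15 of them.

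The catalytic F1 head is built of the products of Atp5a1 (alpha) and Atp5b (beta) around a stalk of gamma, delta and epsilon. All 5 genes were above 0. Atp5e, the epsilon subunit, stood at 124, 94.9, 182 and 308 CPM in NOD and at 93.8, 38.9, 84.0 and 298 CPM in B16A hosts. It was higher in the NOD library of each batch, with log2 ratios of 0.40, 1.28, 1.12 and 0.05, so that batch 4 showed almost no difference. The log2 fold change was 0.70 ± 0.19 SE (edgeR, unadjusted p = 0.00236, adjusted p = 0.683). When batch 4 was left out it rose by 0.94 (edgeR, adjusted p = 0.00778), and it was not called in any other setting. Atp5c1, the gamma subunit, was singled out after its values were seen, because its batches differed least. It stood at 39.7, 41.4, 54.0 and 824 CPM against 31.9, 32.3, 39.1 and 645 CPM, with log2 ratios of 0.31, 0.36, 0.47 and 0.35 (log2 change 0.37 ± 0.13 SE, edgeR adjusted p = 0.762). Atp5d, the delta subunit, had a fold change of 0.38 (0.15) and was higher in NOD in each batch. The fold changes of Atp5a1 and Atp5b were 0.26 (0.15) and 0.17 (0.13).

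The membrane ring that turns with the proton flow is built of 1 protein, encoded by 3 genes that differ mainly in the part removed on import. Atp5g3 stood at 116, 85.5, 213 and 318 CPM in NOD and at 125, 49.5, 80.3 and 259 CPM in B16A hosts, in batch order (log2 change 0.59 ± 0.20 SE, edgeR adjusted p = 0.762), higher in batches 2 to 4 and slightly lower in batch 1. Atp5g1 stood at 1.36 to 5.66 CPM and Atp5g2 at 2.55 to 4.77 CPM over the 8 libraries, with fold changes of 0.13 (0.57) and -0.05 (0.52). Per kilobase of exon Atp5g3 reached 51.2 CPM in batches 1 to 3 and 132 in batch 4, against 0.380 and 0.908 for Atp5g1 and 2.02 and 2.01 for Atp5g2. Of the 3 genes Atp5g3 was thus the one measured well, and 38.3% of the windows of Atp5g2 occur in other transcripts.

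The peripheral stalk, which holds the head still, is made of the products of Atp5f1, Atp5h, Atp5j and Atp5o. All 4 were above 0, with fold changes of 0.34 (0.14), 0.07 (0.16), 0.11 (0.20) and 0.19 (0.13), but Atp5h and Atp5j were below 0 when the trend on coding length was taken out, and Atp5j also with limma voom or without batch 2. Atp5f1 and Atp5o were higher in the NOD library of each batch, and Atp5h and Atp5j in 3 of the 4. Among the small membrane subunits, Atp5j2 stood at 124, 81.6, 155 and 205 CPM in NOD and at 97.1, 52.6, 94.5 and 201 CPM in B16A hosts (0.43 ± 0.15 SE, edgeR adjusted p = 0.762), higher in NOD in each batch. Atp5k also was (0.36, 0.15). Atp5l stood at 2.72, 2.19, 3.56 and 11.8 CPM against 5.42, 2.77, 4.14 and 10.8 CPM, lower in NOD in batches 1 to 3 and higher in batch 4 (-0.32 ± 0.41 SE). Atp5s had a fold change of -0.33 (0.56) and Atp5sl of 0.16 (0.22).

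The batch set the level of these genes far more than the host did. Between the mean of batch 4 and that of batches 1 to 3, the log2 difference had a median of 2.00 over the 42 members, with 39 above 0 and 21 over 2, whereas the median of all tested genes was -0.25. By complex the medians were 2.72 (II), 3.06 (III), 1.46 (IV) and 1.70 (V). Cox5a had the largest difference, 4.44, followed by Sdhd at 4.24, and Cox4i1 and Atp5c1 stood 4.21 higher. At the other end were Cox6b2 (-3.71), Cox7a2l (-0.15) and Atp5g2 (-0.01). Cox7a2l, the member with the largest difference between hosts, was thus 1 of the 3 whose level did not stand higher in batch 4. Batch 4 holds 1 library of each host, so these differences are between batches and not between hosts. Batch 4 also had fewer genes with a count, 19751 (NOD) and 20723 (B16A), against 29729 to 33175 in batches 1 to 3. Its share of counts on mitochondrially encoded genes was 3.13% (NOD) and 4.63% (B16A), against 6.21% to 12.1%. What part this had in the levels was not tested. The labels do not say in what the batches differed.

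**Figure D4:**
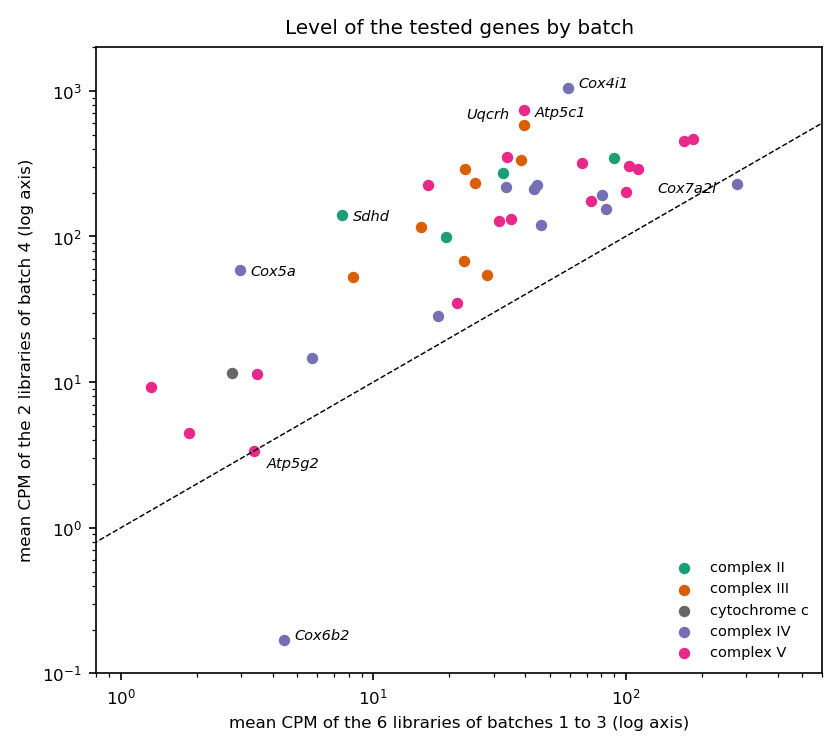
Mean CPM of each tested gene in the 2 libraries of batch 4 (vertical, log axis) against its mean in the 6 libraries of batches 1 to 3 (horizontal, log axis), coloured by complex, with the line of equal levels dashed. Of the 42 genes 39 have a higher mean log2 CPM in batch 4, and Cox6b2 lies farthest below the line.

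Many members have short coding sequences, and genes with short coding sequences lay higher in NOD hosts across the table. Of all tested genes with a coding length under 400 bases, 413 of 582 (71.0%) had a fold change above 0, with a median of 0.16, while 50.6% of the 11387 longer ones did, with a median of 0.00. Of the 40 tested members with a known coding length 21 were that short, and 18 of them lay above 0 with a median of 0.36, while 14 of the 19 longer ones did with a median of 0.22. Atp5e, with 156 coding bases, was the shortest, and Cox7a2l (333), Cox6b1 (258), Cox6c (228), Uqcr10 (192), Uqcrh (267) and Cox7a2 (249) were also under the bound. Sdhb (846) and Atp5c1 (894) were not. With each library's trend on coding length taken out, an alternative chosen after the data were seen, the median of the members was 0.18, 27 of 42 lay above 0 and 8 had an unadjusted p under 0.05 in the higher direction (2.55% of all tested genes). Cox7a2l then had a fold change of 0.62 and Atp5e of 0.52. What coding length stands for in these libraries was not tested.

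The testable subunits that the mitochondrial genome encodes had fold changes below 0. Of 6 such genes of complexes III to V, 2 were testable. mt-Cytb, cytochrome b of complex III, stood at 2050, 1910, 2970 and 5530 CPM in NOD and at 2700, 1910, 2230 and 6600 CPM in B16A hosts, in batch order (log2 change -0.06 ± 0.16 SE). mt-Co1, the catalytic subunit of complex IV, stood at 2450, 1940, 3130 and 3560 CPM against 2840, 2590, 2680 and 5420 CPM (-0.25 ± 0.16 SE). Both were higher in the NOD library only in batch 3, and neither passed (edgeR, adjusted p = 0.996 and 0.917). mt-Co2, mt-Co3, mt-Atp6 and mt-Atp8 are listed with 0 counts, save for 1 count of mt-Co2, which cannot be read as absence of those RNAs.

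Complex I, the nearest group of like genes, also lay mostly above 0. Of its 35 tested nuclear subunits 30 were above 0 (85.7%, against 51.3% of all tested genes). The median was 0.33 (0.20 with the trend on coding length taken out). An unadjusted p under 0.05 in the higher direction was reached by 13 (37.1%, against 3.55% of all tested genes). Ndufa13 (0.60 ± 0.14 SE) and Ndufb5 (0.56 ± 0.16 SE) had the smallest p, with an adjusted p of 0.683 for both in edgeR. The factors that assemble complexes II to V had a median of 0.12, with 26 of 36 above 0. Only 1 was higher at an unadjusted p under 0.05 (2.8%, below the 3.55% of all tested genes). That median was 0.02 without batch 3 and 0.02 with the trend on coding length taken out. The list called ATP synthase partners was a loose one, outside the symbol rule. It held Usmg5, itself a subunit, Atpif1, the carriers Slc25a3, Slc25a4 and Slc25a5, and the prohibitins Phb and Phb2. All 7 were above 0, with a median of 0.09 that was -0.04 without batch 3 and 0.26 without batch 4. Among them were Slc25a5, the ADP/ATP carrier of dividing cells (0.49 ± 0.15 SE), and Atpif1, the inhibitor of the enzyme's reverse reaction (0.37 ± 0.21 SE). The citric acid cycle had 9 of 13 above 0, with a median of 0.23 that was 0.00 without batch 4, and batch medians of -0.12, -0.47, 0.04 and 0.57. Of the mitochondrial redox enzymes 3 of 8 were above 0 (median -0.08, but 0.02 without the batch term and 0.01 with limma voom).

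The list of genes that control mitochondrial genes lay mostly below 0. It held factors for nuclear genes and also Tfam, Tfb1m, Tfb2m and Polrmt, which serve the mitochondrial genome. Of these 14 control genes 3 were above 0, against 51.3% of all tested genes, and the median was -0.16. In the lower direction 2 had an unadjusted p under 0.05, as did 2.31% of all tested genes. Lower in the NOD library of all 4 batches were 4, as were 6.8% of all tested genes. Pprc1, a coactivator of the PGC-1 family, averaged 49.9 ± 14.3 CPM in the 4 NOD libraries and 72.6 ± 35.5 CPM in the 4 B16A libraries (SD), with a log2 change of -0.45 ± 0.17 SE (edgeR, adjusted p = 0.788). Esrra, an orphan nuclear receptor that acts with these coactivators, averaged 3.74 ± 1.74 and 7.62 ± 2.69 CPM (SD) (-1.08 ± 0.42 SE, edgeR adjusted p = 0.795). No gene of the lists passed the threshold after adjustment, and the differences between the lists were not tested.

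**Figure D5:**
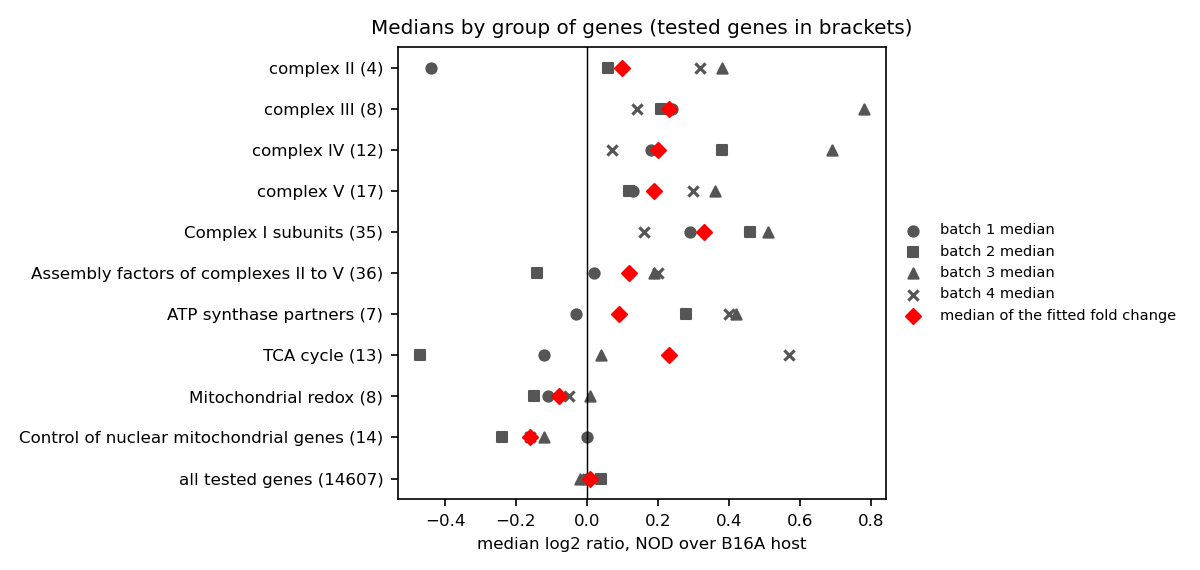
Median log2 ratio, NOD over B16A host (horizontal axis), for each complex, each list of related genes and all tested genes, with the number of tested genes in brackets. Grey markers are medians over genes within 1 batch and red diamonds are medians of the fitted fold change. The diamond of complex I lies at 0.33 and that of the control genes at -0.16, and the batch medians of complex II spread from -0.44 to 0.38.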

How the data were processed

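RNA of sorted T cells was sequenced in 8 libraries as single reads of 50 bases after amplification, per the labels' protocols. The authors deposited 1 table of raw read counts per gene, without normalization. The build mm10 and the tools STAR, HTSeq and DESeq2 are named per the submitters' processing notes. Versions, annotation, strand setting and treatment of reads with several matches were not given in the sources used here, so genes with copies or overlapping partners are uncertain. Host groups follow the sample labels, and no column of the table lacked a sample (0 such columns).

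The test was run in edgeR 4.0.16 under R 4.3.3 (glmQLFit with robust estimation, glmQLFTest) with terms for batch and host, TMM normalization and the filterByExpr filter on host. P-values of all 14607 tested genes were adjusted together by Benjamini-Hochberg, and calls were made at 0.05. The fit had 3 residual degrees of freedom, or 2 with a batch left out. Each SE given for edgeR is the size of the log2 fold change divided by the square root of the test's F statistic. Such an SE is unreliable for fold changes near 0, as for Cox6b2 (1.47, but 0.23 without a filter on low counts). CPM values were scaled by TMM library sizes, and log2 CPM had a prior count of 2. The pairing comes from the batch number in the labels. Deviations from the host means correlated across genes with r = 0.626, 0.703, 0.611 and 0.906 within batches 1 to 4 and with -0.826 to 0.741 between batches. No libraries of a host agreed within sampling noise (smallest chi-square per degree of freedom 9.61).

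Alternatives were a fit without the batch term, other size factors and filters, DESeq2 1.42.0 on the same genes without its own filter, limma 3.58.1 voom with quality weights, each batch left out, and corrections for length with GC content and for coding length. The edgeR script was tested on simulated data. Lengths and positions came from GENCODE vM21 (GRCm38, the assembly of mm10), which matched 41965 of 46625 names and 47 of 49 members. Levels per kilobase use all exonic bases and were averaged by batch, because the batches differed in level. Promoters came from RefSeq (GRCm38.p6).

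The members and gene lists were chosen with earlier results of these data known. The fold changes of a list were therefore not tested as a set. A permutation test was run only on the members' share of counts. It ignores the pairing, and no conclusion is drawn from it. Named members were those called in any planned setting, up to 3 per complex and direction with the smallest p, cytochrome c, the isoform sets and those too low to test. The other members are given by their fold changes to account for all of them. Of each list, members past the threshold or else those with the smallest p were named.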

Additional observations from a re-analysis of the deposited data

Results flagged for a closer look

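Within a host, the highest or lowest of the 4 libraries was compared with the gap that Dixon's test allows at its 95% level, for 50 groups of libraries. In 9 of them 1 library stood apart, and in all 9 it was a batch 4 library. Chance gives about 1 in 20 for a single group, but the 50 groups share the same 8 libraries and are not independent. The count of 9 is therefore a description and not a test. In NOD hosts, Sdha stood at 421 CPM in batch 4 against 83.6 to 105 CPM in the other 3 libraries, Sdhb at 313 CPM against 32.6 to 42.1, and Atp5s at 10.6 CPM against 0.809 to 1.19. In B16A hosts, Sdhb stood at 234 CPM in batch 4 against 21.8 to 32.5 in the others, Sdhd at 129 CPM against 7.65 to 9.18, Uqcr10 at 206 CPM against 16 to 23.1 and Uqcrh at 536 CPM against 24.4 to 33.5. Cox8a stood at 142 CPM in the B16A library of batch 4 against 38.7 to 44.1 CPM. Cox6b2 was the only one that stood apart on the low side, at 0.292 CPM against 3.16 to 4.61 CPM in the other B16A libraries. What sets batch 4 apart was not tested.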

How the results depend on the processing

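The number of members called was 1 (Cox7a2l) without a filter on low counts, with DESeq2 and with limma voom, and 0 to 2 with each batch left out, where 2 (Cox7a2l and Atp5e) came without batch 4. The cause was not tested. The median of complex V was 0.16 to 0.32 with each batch left out, and it was 0.32 without batch 1. Leaving out a batch lowers the residual degrees of freedom from 3 to 2.

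Without the replicate block the median of all members was 0.25, no member was called, and 6 fold changes of named members changed sign: Atp5s (0.09), Cox8a (-0.11), Cycs (-0.04), Sdhc (0.08), Sdhd (0.14) and Uqcr11 (0.03). The replicate block with the length and GC correction gave a median of 0.19 and changed, of the named members, the sign of Atp5g2 (0.02), Cox6a1 (0.06) and Uqcr11 (0.01). With the coding length correction the number of members above 0 went from 34 to 27 of 42, and of the named members Atp5g1 (-0.00), Cox6b2 (-0.16) and Cox8a (-0.18) changed sign. Cox6a1 (0.02) and Uqcr11 (0.10) did so with limma voom, and Cox8a (-0.00) did with upper-quartile factors and without a filter.

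With each batch left out in turn, these fold changes of named members took both signs: Atp5g1 (-0.15 to 0.34), Atp5g2 (-0.29 to 0.22), Cox5a (-0.89 to 0.02), Cox6a1 (-0.20 to 0.04), Cox6b2 (-0.30 to 0.43), Cox8a (-0.19 to 0.23), Cycs (-0.09 to 0.51), Sdhc (-0.17 to 0.10), Sdhd (-0.41 to 0.06) and Uqcr11 (-0.15 to 0.14). The median of the control genes was -0.26 to -0.05 and that of mitochondrial redox -0.19 to 0.09. Of 324 values of the 25 named and tested members under the alternatives, 288 kept their sign and side of the threshold, 31 changed sign and 5 passed it.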
